A study of Mus musculus with 8 samples.

Results

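The genes described here encode the TGF-beta ligands, their receptors, a pair of latent TGF-beta binding proteins and the feedback inhibitor Smad7. They are the 3 ligands Tgfb1, Tgfb2 and Tgfb3, the 3 receptors Tgfbr1, Tgfbr2 and Tgfbr3, the 2 binding proteins Ltbp1 and Ltbp2, and Smad7. Members were chosen by name, with earlier results of these data known. Their probes were found through the RefSeq accession that the array design gives each probe. All 9 members were measured, out of 22909 genes with a symbol, and all 9 were among the 15744 genes tested. They were read by 13 probes, 2 each for Tgfb1, Tgfb2, Tgfbr1 and Smad7 and 1 each for the other 5 genes. Every one of these probes was well above background on all 8 arrays and none was saturated.

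RNA came from the heart ventricles of newborn mice (0 day) and of mice aged 1 week. At each age, wild-type animals (WT) were set against animals homozygous for the ΔK210 mutation of the endogenous Tnnt2 gene (KI), the gene of cardiac troponin T, which ties tropomyosin to the other troponins; the series presents these mice as a model of neonatal dilated cardiomyopathy. Each of the 4 groups had 2 single-colour arrays. Tissue of 3 animals was combined per group, the labels name no strain or sex, and the series text speaks of the left ventricle where the extraction text speaks of the ventricle. Nothing says that the 2 arrays of a group were made from separate pools, so each p-value measures the spread between arrays, which may be technical.

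At 1 week, 3 of the 4 columns of the deposited value table equal the scanner file of another sample, so the 1-week arrays are named A to D. Here A and D are WT and B and C are KI, as in the value table. By the labels of the scanner files, A and B are WT and C and D are KI. The birth arrays carry the same sample in both records. The slide carried the newborn samples in its row 1 and the older samples in its row 2, and age cannot be told apart from row. For newborns, WT filled columns 1 and 2 and KI columns 3 and 4, and genotype there cannot be told apart from column. At 1 week the same holds by the labels of the scanner files. By the value table, WT then filled columns 1 and 4 and KI columns 2 and 3. Arrays A and D stood apart. The 75th percentile of the signal was 342.4 on array D and between 439.9 and 523.0 on the others, and the summed level of 6 atrial markers was 67.3 on array A and between 407.5 and 584.2 on the others. Array D also had the highest summed level of 8 fibroblast markers, 398.7 against 304.4 to 311.4 on the other 1-week arrays, and of 8 endothelial markers, 249.1 against 178.4 to 208.5. The scanner software marked the array KI birth 1 for evaluation and the other 7 as in range. The 8 markers of ventricular cardiomyocytes were well above background on every array, with summed levels of 2628 to 2830 at birth and 2162 to 2219 at 1 week. The sum follows the brightest markers. Taken singly, by the value table, 4 of 8 were higher at 1 week in WT and 5 of 8 in KI. Their median log2 difference was 0.050 in WT and 0.067 in KI.

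TGF-beta ligands are secreted in a latent form. Each mature dimer stays bound to its own propeptide, and that complex can be disulphide-linked to a latent TGF-beta binding protein that anchors it in the fibrillin matrix until integrins or proteases release the ligand. The free ligand binds the type II receptor Tgfbr2, which recruits and phosphorylates the type I receptor Tgfbr1; Tgfbr3, also called betaglycan, presents ligand and matters most for TGF-beta 2. Activated Tgfbr1 phosphorylates Smad2 and Smad3, which enter the nucleus with Smad4, and Smad7 is induced by the pathway and blocks the type I receptor. In the heart the pathway is known for valve and septum formation in the embryo and for matrix production by fibroblasts. Ltbp2 differs from Ltbp1 in that it does not bind latent TGF-beta; it is known as a matrix protein of elastic and microfibrillar tissue.

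The promoters of the latent binding proteins are printed because these 2 genes had the largest positive age differences among the members. RefSeq promoter windows of build GRCm38.p6 were found for 6 of the 9 members, Tgfb1, Tgfb2, Tgfbr1, Tgfbr2, Ltbp1 and Ltbp2, with 8 windows in all. The 250 bases before each start are given from 5′ to 3′ on the strand of the gene, with CAGAC and its reverse complement GTCTG, the core of Smad-binding elements, in capitals.

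Ltbp2, chr12:84876492-84876741, minus strand: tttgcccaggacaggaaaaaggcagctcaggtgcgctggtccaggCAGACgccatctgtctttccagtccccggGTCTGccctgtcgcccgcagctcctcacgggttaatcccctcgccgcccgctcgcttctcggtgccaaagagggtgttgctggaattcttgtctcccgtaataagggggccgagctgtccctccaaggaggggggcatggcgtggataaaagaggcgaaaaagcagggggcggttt
Ltbp1, first start, chr17:75005279-75005528, plus strand: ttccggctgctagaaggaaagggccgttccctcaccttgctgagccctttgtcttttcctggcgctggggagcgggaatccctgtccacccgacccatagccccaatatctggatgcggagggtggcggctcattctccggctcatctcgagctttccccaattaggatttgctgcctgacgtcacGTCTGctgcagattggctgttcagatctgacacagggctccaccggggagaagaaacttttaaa
Ltbp1, second start, chr17:75178531-75178780, plus strand: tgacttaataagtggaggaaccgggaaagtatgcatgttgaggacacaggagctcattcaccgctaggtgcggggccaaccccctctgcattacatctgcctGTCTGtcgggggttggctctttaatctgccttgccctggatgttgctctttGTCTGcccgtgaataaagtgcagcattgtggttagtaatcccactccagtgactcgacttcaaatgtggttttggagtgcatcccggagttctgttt

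Matches to CAGAC, searched on both strands, numbered 2 in the Ltbp2 window, 1 in the first Ltbp1 window and 2 in the second. Of the 8 member windows 6 held a match, as did 42.2% of all 32851 promoter windows of the same length, so the letters are common. The first Ltbp1 window also held the palindrome TGACGTCA, the letters of a cyclic AMP response element, which 1.55% of all windows hold. No member window held TGANTCA, the letters of an AP-1 site, found in 6.75% of all windows, and the Tgfb2 window alone held TATAAA, found in 12.4%. A match is a description of the letters in this window and no evidence of binding.

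All levels below are log2 signals minus the 75th percentile of the array, so a value of 0 is the 75th percentile and a difference of 1 is a doubling of signal. Probes differ in brightness for reasons of design, so levels are compared between arrays and not between genes. Differences are given ± the standard error of the fit (limma, 2 arrays a group), with p-values adjusted by Benjamini-Hochberg over all genes tested, and a gene is said to have risen or fallen where this was under 0.05.

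**Figure D1:**
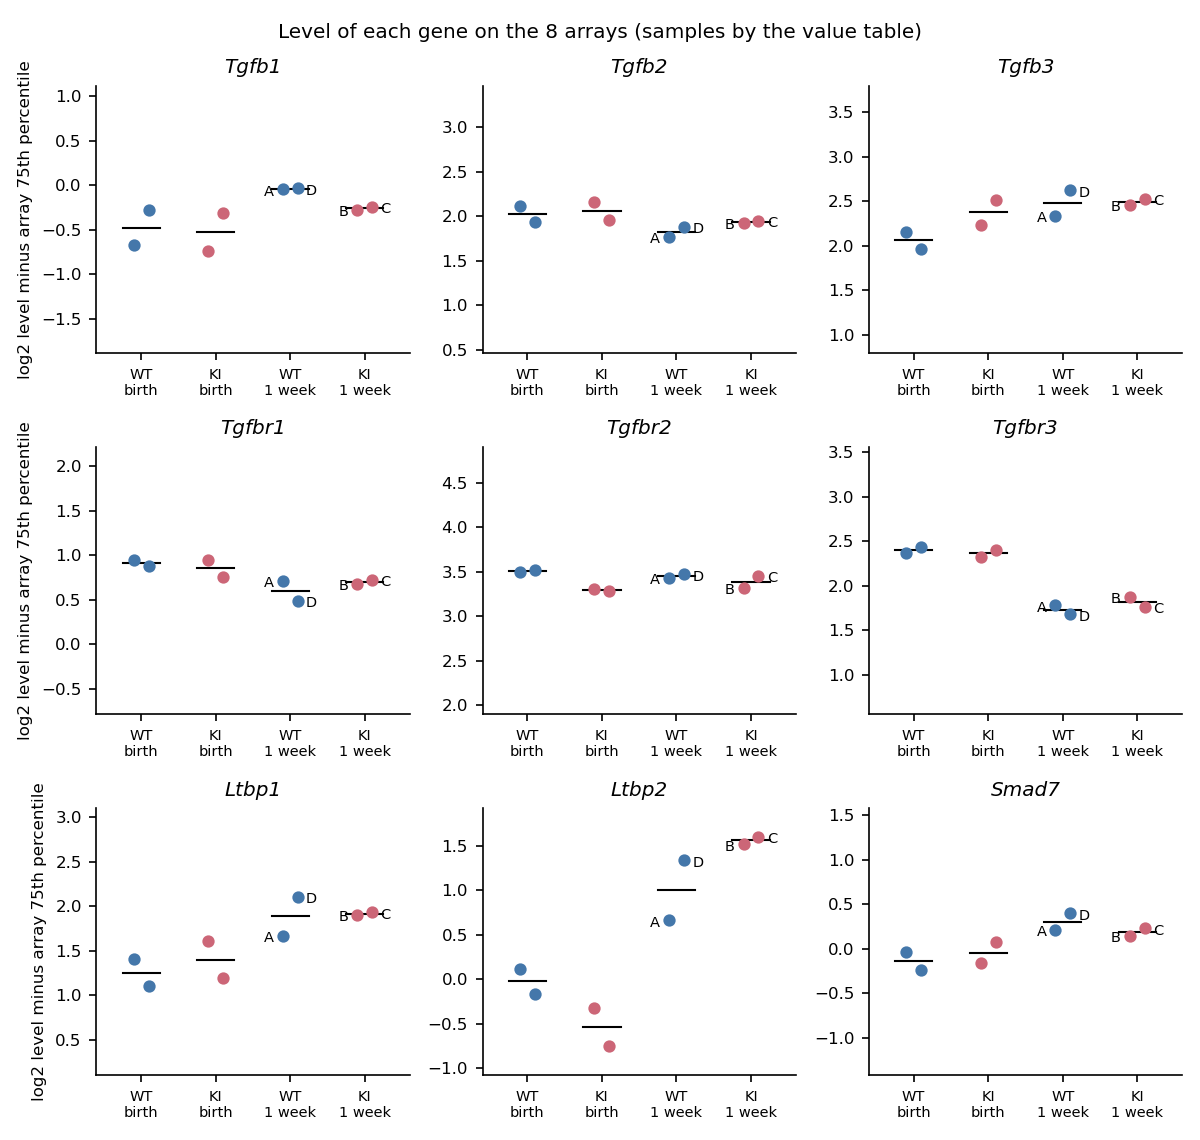
Level of each member on the 8 arrays, as log2 signal minus the 75th percentile of the array; dots are arrays, the black line is the mean of the 2 arrays, blue is WT and red is KI by the value table, and every panel spans 3 log2 units. Ltbp2 covers 2.36 log2 units over the arrays, more than any other member, and Tgfbr2 covers 0.23, the least.

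Over the first week after birth, Ltbp2 rose and Tgfbr3 fell in both genotypes, and no other member passed the test. Of these 4 calls, that of Ltbp2 in KI was kept under all 21 alternatives in sample record, processing or arrays, whereas that of Ltbp2 in WT was lost under 9 of them, that of Tgfbr3 in KI under 11 and that of Tgfbr3 in WT under 3. Ltbp2 was 2.03-fold higher at 1 week in WT and 4.29-fold higher in KI. Tgfbr3 was 1.60-fold lower in WT and 1.46-fold lower in KI. In WT, 1 of 9 members rose, against 10.0% of all genes tested, and 1 fell, against 8.96%. In KI, 1 rose against 5.86% and 1 fell against 4.75%. With 1 member in each direction, these shares are near the background and say nothing of the set as a whole. The median difference over the 9 members was 0.41 in WT and 0.11 in KI, beside -0.042 and -0.023 over all genes. With the scanner-file labels it was 0.32 in WT and 0.20 in KI, beside -0.017 and -0.038. The WT and KI age differences rest on separate arrays.

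Ltbp2, on chromosome 12, read 0.12 and -0.17 on the WT birth arrays and -0.33 and -0.76 on the KI birth arrays. At 1 week it read 0.66 on array A, 1.51 on B, 1.60 on C and 1.34 on D. All 1-week arrays were above all birth arrays, and the KI birth arrays were the lowest and the KI 1-week arrays the highest. The rise was 1.02 ± 0.25 in WT (adjusted p = 0.0340) and 2.10 ± 0.25 in KI (adjusted p = 0.00415). By the scanner files it was 1.11 ± 0.30 in WT, which missed the threshold (adjusted p = 0.0574), and 2.01 ± 0.30 in KI (adjusted p = 0.00932). The WT rise depended on single arrays: it was 0.69 without array D (adjusted p = 0.117) and 1.36 without array A (adjusted p = 0.0127), and the call was also lost without either WT birth array (adjusted p = 0.0877 and 0.144) or without B or C (adjusted p = 0.0587 for each). The KI rise passed the threshold whichever single array was left out, at 1.89 to 2.31.

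Tgfbr3, on chromosome 5, encodes the co-receptor betaglycan. Its level was 2.37 and 2.44 on the WT birth arrays and 2.33 and 2.40 on the KI birth arrays. At 1 week it was 1.78 on A, 1.88 on B, 1.77 on C and 1.68 on D. The 1-week arrays were all below the birth arrays, and within an age the WT and KI arrays interleaved at birth and lay close together at 1 week. The fall was -0.67 ± 0.12 in WT (adjusted p = 0.0116) and -0.54 ± 0.12 in KI (adjusted p = 0.0336). Both were still called with the scanner-file labels, at -0.58 ± 0.11 in WT (adjusted p = 0.0221) and -0.64 ± 0.11 in KI (adjusted p = 0.0152). The size varied little when single arrays were left out, from -0.72 to -0.62 in WT and from -0.60 to -0.49 in KI, but the WT call was lost without either WT birth array (adjusted p = 0.0559 and 0.0668) and the KI call without any one of the 4 KI arrays or the 2 WT birth arrays, the highest adjusted p being 0.181. The KI call was also lost with median scaling (adjusted p = 0.0720), no filter on dim probes (0.0668), every probe fitted (0.0695) and only the arrays compared (0.0567), and the WT call with only the arrays compared (0.0592).

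**Figure D2:**
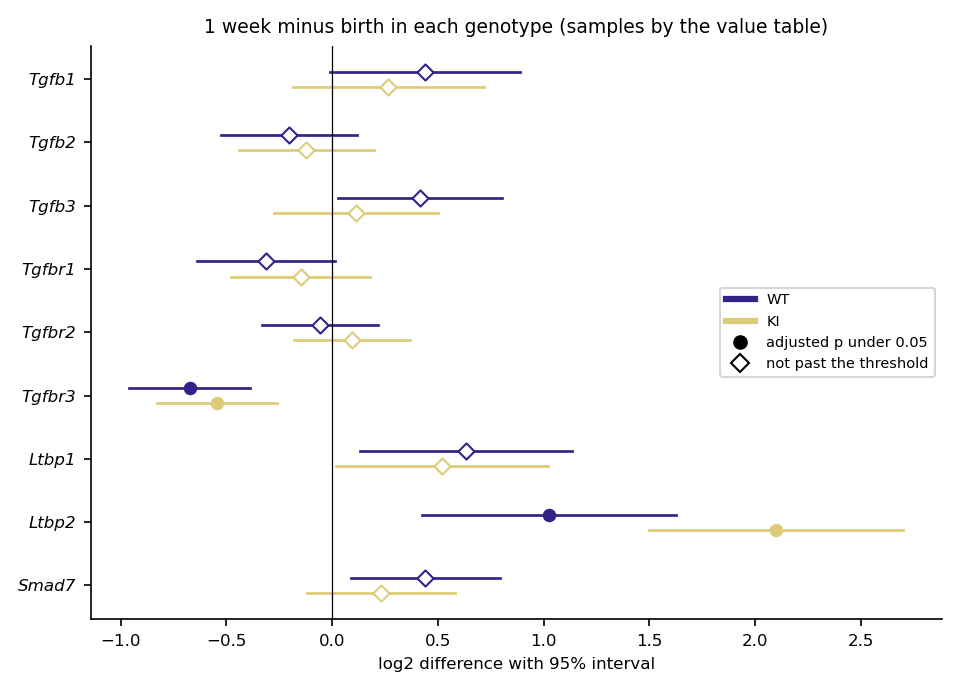
Difference between 1 week and birth for each member, in log2 units with its 95% interval, in WT and in KI by the value table; filled circles have an adjusted p under 0.05 and open diamonds do not. Ltbp2 lies to the right of 0 and Tgfbr3 to the left in both genotypes, and the KI interval of Ltbp2 (1.50 to 2.70) overlaps that of WT (0.42 to 1.63).

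The ligands did not pass the age test in either genotype. Tgfb1, on chromosome 7, encodes the ligand most studied in fibrosis. It read -0.68 and -0.28 on the WT birth arrays, -0.74 and -0.31 on the KI birth arrays, -0.048 on A, -0.28 on B, -0.24 on C and -0.037 on D. The 2 birth arrays of each genotype lay about as far apart as birth from 1 week, and the difference was 0.44 ± 0.19 in WT (adjusted p = 0.145) and 0.27 ± 0.19 in KI (adjusted p = 0.443). Tgfb3, on chromosome 12, is needed for palate fusion. It read 2.16 and 1.97 on the WT birth arrays, 2.24 and 2.52 on the KI birth arrays, 2.33 on A, 2.45 on B, 2.52 on C and 2.62 on D. Its WT arrays at 1 week were above those at birth by 0.41 ± 0.16 (adjusted p = 0.117), whereas the KI arrays of the 2 ages overlapped, with a difference of 0.11 ± 0.16 (adjusted p = 0.722). By the scanner files the KI arrays of the 2 ages did not overlap. The Tgfb3 difference was then 0.33 ± 0.15 in WT (adjusted p = 0.183) and 0.20 ± 0.15 in KI (adjusted p = 0.380). Tgfb2, on chromosome 1, is the ligand most needed for outflow tract septation. It ranged from 1.94 to 2.16 at birth and from 1.76 to 1.94 at 1 week, and its difference was -0.20 ± 0.14 in WT (adjusted p = 0.316) and -0.12 ± 0.14 in KI (adjusted p = 0.635). Of the 6 ligand intervals drawn in the plot of age differences, that of Tgfb3 in WT (0.028 to 0.80) alone left out 0.

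Among the signalling receptors, Tgfbr2 showed the narrowest range of any member. This type II receptor gene on chromosome 9 read 3.50 and 3.52 on the WT birth arrays, 3.30 and 3.28 on the KI birth arrays, 3.43 on A, 3.32 on B, 3.45 on C and 3.47 on D. Its age difference was -0.057 ± 0.12 in WT, with a 95% interval of -0.33 to 0.22, and 0.093 ± 0.12 in KI, with an interval of -0.18 to 0.37. Tgfbr1, the type I receptor gene on chromosome 4, read 0.95 and 0.88 on the WT birth arrays, 0.95 and 0.76 on the KI birth arrays, 0.72 on A, 0.68 on B, 0.73 on C and 0.49 on D. Every 1-week array was below every birth array, yet the differences of -0.31 ± 0.14 in WT (adjusted p = 0.149) and -0.15 ± 0.14 in KI (adjusted p = 0.560) did not pass.

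Ltbp1, on chromosome 17, covalently binds the latent complexes. It read 1.41 and 1.102 on the WT birth arrays and 1.61 and 1.19 on the KI birth arrays, against 1.67 on A, 1.90 on B, 1.93 on C and 2.10 on D. All 1-week arrays were above all birth arrays, but array A exceeded the highest birth array by less than the birth arrays of either genotype differed. The difference was 0.63 ± 0.21 in WT (adjusted p = 0.0781) and 0.52 ± 0.21 in KI (adjusted p = 0.181), and without array A it was 0.85 in WT and passed (adjusted p = 0.0406). Smad7 read -0.037 and -0.23 on the WT birth arrays, -0.16 and 0.080 on the KI birth arrays, 0.21 on A, 0.15 on B, 0.23 on C and 0.40 on D. Within each genotype its 1-week arrays were above its birth arrays. Its difference was 0.44 ± 0.15 in WT (adjusted p = 0.0807) and 0.23 ± 0.15 in KI (adjusted p = 0.389).

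At 1 week against birth by the value table, the arrays of the 2 ages did not overlap for 9 of 9 members in WT, where 62.7% of all genes did not overlap, and for 8 of 9 in KI, where 60.1% did not. When samples followed the scanner files, 1 of 9 members was called by age in WT, against 12.7% of all genes, and 2 of 9 in KI, against 15.3%. A whole-ventricle RNA sample cannot tell fewer cells of a type from less RNA per cell. The summed level of 8 fibroblast markers was 158.0 to 183.9 at birth and 304.4 to 398.7 at 1 week, and that of 8 endothelial markers was 135.3 to 141.8 and 178.4 to 249.1. For 8 macrophage markers it was 10.1 to 11.9 at birth and 14.0 to 18.6 at 1 week, for 6 adipocyte markers 16.3 to 21.2 and 25.5 to 35.9, and for 7 epicardial markers 13.8 to 18.6 and 15.9 to 18.8. The 8 mural and smooth muscle markers summed to 146.5 to 187.0 at birth and 142.6 to 178.6 at 1 week, the 7 platelet markers to 4.73 to 6.24 and 6.38 to 6.94, and the 5 erythroid markers measured to 3.29 to 7.05 and 4.83 to 12.8. Sums follow their brightest markers. By the value table, 2 of 7 epicardial markers were higher at 1 week in each genotype (median log2 differences -0.43 in WT and -0.34 in KI). Higher in WT and KI were 6 and 5 of 8 mural markers (medians 0.57 and 0.28) and 6 and 3 of 7 platelet markers. All 6 adipocyte markers were higher in both (medians 2.50 and 3.88). So were 7 of 8 fibroblast and 7 of 8 endothelial markers. Of 8 macrophage markers, 7 were higher in WT and 5 in KI. The fibroblast, mural, endothelial, macrophage and epicardial markers were well above background on every array, while 4 adipocyte, 2 erythroid, 1 atrial and 1 platelet marker were not on at least 1 array, and 1 of the erythroid markers on none. The part of these cells in the rise of Ltbp2 and the fall of Tgfbr3 was not tested.

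Between genotypes, no member passed the test at either age. At birth all 9 adjusted p were 0.9999, where 0.0381% of all genes tested were called, that is 6 genes, and 741 genes had an unadjusted p under 0.05, none of them a member. Of the 9 members 3 did not overlap between genotypes at birth, where 31.9% of all genes did not. Ltbp2 was lower on both KI arrays than on both WT arrays, at a difference of -0.52 ± 0.25, with a 95% interval of -1.12 to 0.084. Tgfb3 was higher on both KI arrays, by 0.31 ± 0.16, with an interval of -0.074 to 0.70. Tgfbr2 was lower on both, at -0.21 ± 0.12, with an interval of -0.49 to 0.062; its SD between the 2 arrays was 0.014 in WT and 0.013 in KI. The other 6 members overlapped, and the largest of their differences was 0.14 ± 0.21, for Ltbp1.

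At 1 week the adjusted p of the members ran from 0.689 to 0.986, where 0.0508% of all genes tested were called, that is 8 genes, and 1111 genes had an unadjusted p under 0.05, none of them a member. Again 3 of 9 members did not overlap between genotypes, where 37.9% of all genes did not. Ltbp2 was higher on both KI arrays, by 0.56 ± 0.25 with a 95% interval of -0.041 to 1.16, which is 0.22 without array A and 0.90 without array D. Tgfb1 was lower on both KI arrays, at -0.22 ± 0.19 with an interval of -0.67 to 0.23. Tgfb2 was higher on both, by 0.11 ± 0.14 with an interval of -0.21 to 0.43. For Tgfbr3 the interval was -0.19 to 0.37 and for Tgfbr2 -0.34 to 0.21, so doublings or halvings of these receptors between genotypes lie outside the intervals.

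The record used for the 1-week samples altered which members overlapped. With the scanner-file labels 5 of 9 did not overlap, where 40.1% of all genes did not, and none was called, where 0.00635% of all genes were. These 5 were Ltbp1 (0.23 ± 0.19), Tgfb3 (0.18 ± 0.15), Smad7 (0.13 ± 0.14) and Tgfbr2 (0.083 ± 0.11), higher on both KI arrays, and Tgfbr3 (-0.10 ± 0.11), lower on both. Ltbp2 then overlapped, with a difference of 0.38 ± 0.30. The sign of the genotype difference at 1 week turned between the records for Tgfb1, Tgfbr1, Tgfbr2, Tgfbr3 and Smad7, all of them at most 0.22 in size and none called under either.

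**Figure D3:**
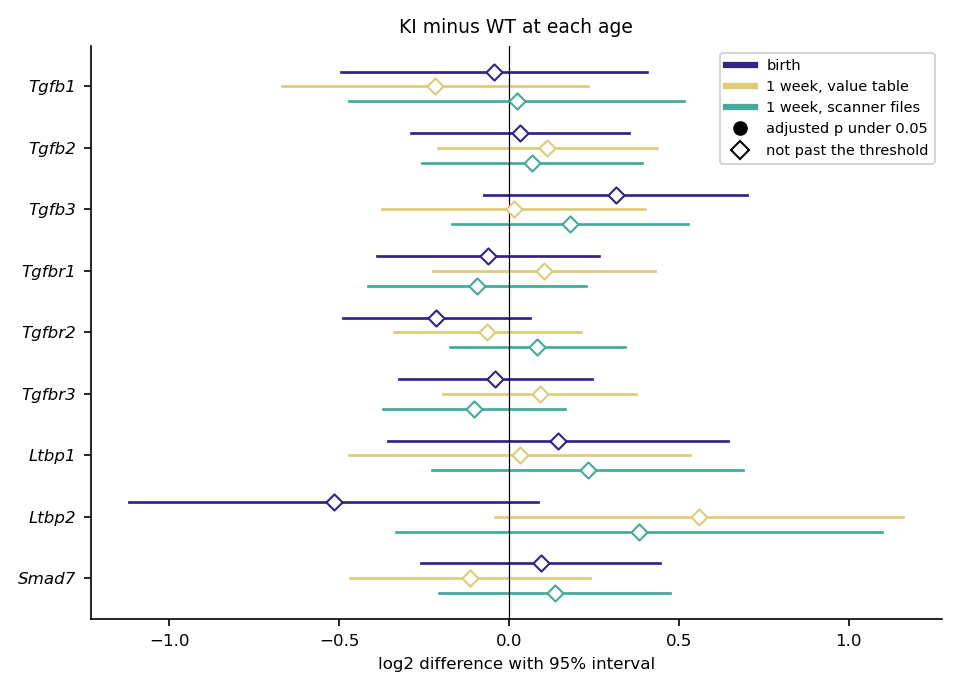
KI minus WT for each member, in log2 units with its 95% interval, at birth, at 1 week by the value table and at 1 week by the scanner-file labels; no point has an adjusted p under 0.05, so all are open diamonds. Every interval crosses 0, and Ltbp2 lies at -0.52 at birth and at 0.56 and 0.38 at 1 week.

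Whether the genotype difference itself changed with age was tested as an interaction. No member passed, where 0.00635% of all genes tested did, that is 1 gene, and 763 genes had an unadjusted p under 0.05. Ltbp2 was the 1 member among these, with a difference of differences of 1.08 ± 0.36 (unadjusted p = 0.0201, adjusted p = 0.888). Its KI arrays were below WT at birth and above WT at 1 week. With the scanner-file labels the value was 0.90 ± 0.42 (adjusted p = 0.811). The steeper rise in KI is therefore not shown to differ from that in WT. For the other 8 members, each at its brightest probe, the interaction lay between -0.30 for Tgfb3 and 0.17 for Tgfbr1. The dimmer of the 2 Tgfbr1 probes gave -1.34 ± 0.51 (unadjusted p = 0.0326, adjusted p = 0.876 over all probes).

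For 4 members a dimmer second probe allowed a check. The plot of both probes shows the profiles. For Tgfb1 and Tgfb2 both probes gave the same sign in all 5 comparisons. For Tgfb1 the dimmer probe gave an age difference of 0.42 in WT and 0.35 in KI, close to the 0.44 and 0.27 of the brighter. For Smad7 the age differences were 0.36 in WT and 0.54 in KI on the dimmer probe. However, KI minus WT at 1 week was 0.22 on the dimmer probe and -0.12 on the brighter. The interaction also turned sign, at 0.17 on the dimmer and -0.21 on the brighter. The probes of Tgfbr1 disagreed. Its dimmer probe ran from -4.53 on array C to -2.49 on array D, and its difference between 1 week and birth was 0.73 in WT and -0.61 in KI, opposite in WT to the -0.31 of the brighter probe. KI minus WT at 1 week was -1.26 ± 0.36 on that probe (unadjusted p = 0.0093, adjusted p = 0.729 over all probes), against 0.10 ± 0.16 on the brighter. The interaction was -1.34 ± 0.51 on the dimmer probe and 0.17 ± 0.22 on the brighter. The signal of the dimmer probe was 20.3 to 69.2, whereas that of the brighter was 479.3 to 884.4, so the brighter probe carries the values above.

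**Figure D4:**
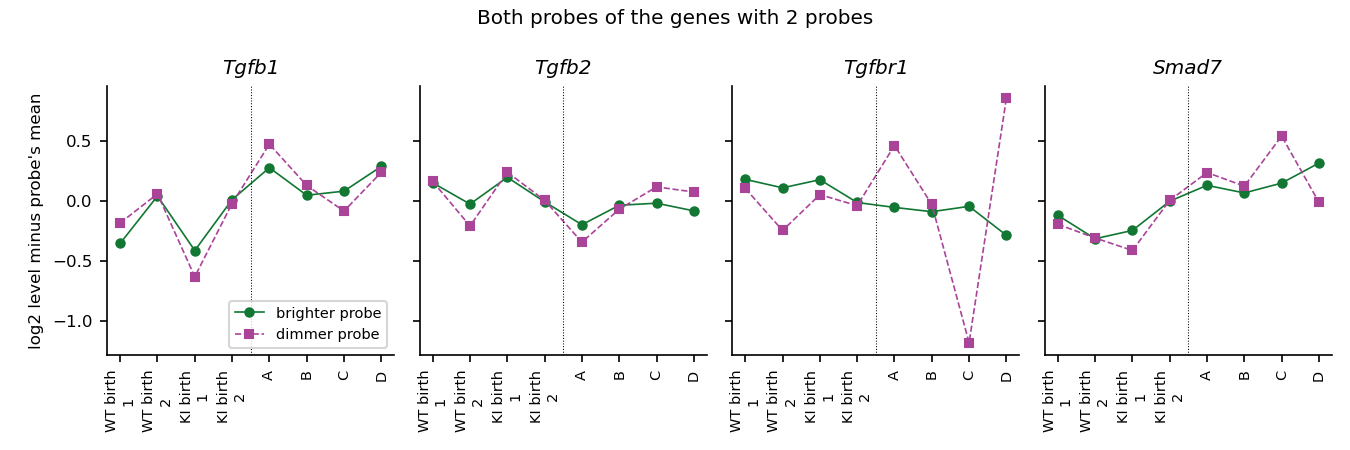
Both probes of the 4 members with 2 probes, as log2 level minus the mean of the probe over the 8 arrays; circles are the brighter probe, squares the dimmer, and the dotted line separates birth from 1 week. The probes of Tgfb1 and Tgfb2 follow each other broadly. Those of Smad7 part on arrays C and D, and the dimmer Tgfbr1 probe departs from the brighter on arrays A, C and D.

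The surrounding pathway was read from 5 lists with 111 genes in all, of which 105 were tested. The lists were chosen with earlier results of these data known. Setting their counts and medians beside those of all genes is therefore description and no test. By age, 19 rose and 12 fell in WT, and 17 rose and 9 fell in KI; with the scanner-file labels, of 104 tested, 16 rose and 7 fell in WT and 27 rose and 8 fell in KI. Over all genes tested 10.0% rose and 8.96% fell in WT and 5.86% rose and 4.75% fell in KI, and with the scanner-file labels 12.7% were called in WT and 15.3% in KI in either direction. The median difference over the 105 genes was 0.16 in WT and 0.12 in KI, beside -0.042 and -0.023 over all genes. With the scanner-file labels it was 0.087 in WT and 0.13 in KI. None of the 105 passed between genotypes at either age or for the interaction. Genes are named as the 2 in each direction with the smallest p, so they are the extremes of their lists.

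Of 22 genes of latency and activation tested, 5 rose and 1 fell in WT, and 3 rose and 1 fell in KI. These counts, and those of the lists that follow, stand beside 10.0% risen and 8.96% fallen of all genes in WT. In KI the shares of all genes were 5.86% and 4.75%. Itgb6, the beta subunit of an integrin that releases latent TGF-beta from its propeptide in epithelia, read -7.10 to -6.38 on the birth arrays, none of them well above background, and -0.55 on A, -0.51 on B, -1.32 on C and -1.85 on D. It was at least 12.9-fold higher at 1 week in WT (adjusted p = 0.00114) and at least 19.1-fold higher in KI (adjusted p = 0.00137). Each bound sets the 1-week mean against the dimmest signal well above background on each birth array, or the signal of the gene itself where that was higher. The adjusted p belong to the measured differences, which use the birth signals below background, and not to the bounds. Itgb6 was tested only through its 1-week arrays. Ltbp4, a binding protein of latent TGF-beta 1 that also guides elastic fibre assembly, rose by 1.32 ± 0.14 in WT (adjusted p = 0.00201) and 1.11 ± 0.14 in KI (adjusted p = 0.00447). Fbn2, the fibrillin of developing tissue, fell by 1.20 ± 0.20 in WT (adjusted p = 0.00868), and by 0.89 with the scanner-file labels, where it was not called (adjusted p = 0.176). Mmp9, a gelatinase, is the 1 gene counted as falling in KI. It was well above background on the KI birth arrays alone and was tested only through them, so its call is no support for a fall. The measured difference was -2.01 ± 0.50 (adjusted p = 0.0497) and uses 1-week signals not well above background. As a bound it was at least 1.22-fold lower. The call was lost with the scanner-file labels (adjusted p = 0.0974).

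Of 14 receptor partners and Smads, 2 rose and 1 fell in WT, and 1 rose in KI. Cd109, a co-receptor that dampens signalling, rose by 0.74 ± 0.14 in WT (adjusted p = 0.0145) and 1.07 ± 0.14 in KI (adjusted p = 0.00558). Acvrl1, the endothelial type I receptor ALK1, rose by 0.63 ± 0.14 in WT (adjusted p = 0.0242), and Smad3, a transducing Smad, fell by 0.48 ± 0.13 (adjusted p = 0.0422). Both WT calls were lost with the scanner-file labels, where the WT values were 0.48 (adjusted p = 0.0677) and -0.36 (adjusted p = 0.142). In KI neither gene was called by the value table (adjusted p = 0.108 and 0.0685). With the scanner-file labels both were called in KI, at 0.58 (adjusted p = 0.0356) and -0.57 (adjusted p = 0.0402).

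Of 16 inhibitors, 3 rose and 3 fell in WT, and 4 rose and 2 fell in KI. Pmepa1, a TGF-beta-induced protein that sequesters Smad2 and Smad3, rose by 1.45 ± 0.15 in WT (adjusted p = 0.00201) and 1.11 ± 0.15 in KI (adjusted p = 0.00607). Decorin (Dcn), a proteoglycan that binds the ligand, rose by 1.73 ± 0.19 and 1.38 ± 0.19 (adjusted p = 0.00249 and 0.00662); it also stands in the fibroblast marker list. Smad6, the inhibitory Smad that acts mainly on BMP receptors, fell by 0.87 ± 0.19 in WT (adjusted p = 0.0214) and 0.75 ± 0.19 in KI (adjusted p = 0.0497). Nedd4l, a ubiquitin ligase of activated Smads, fell by 0.70 ± 0.13 and 0.57 ± 0.13 (adjusted p = 0.0130 and 0.0353). By the scanner files its WT value was -0.49, not called (adjusted p = 0.0846), and its KI value -0.77, still called (adjusted p = 0.0214).

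Of 23 genes of the activin and BMP branch tested, 4 rose and 3 fell in WT, and 3 rose and 2 fell in KI. Bmp7, a BMP ligand, read 2.41 to 2.84 at birth, 0.34 on A, 0.60 on B, 0.79 on C and -0.23 on D, and fell by 2.50 ± 0.21 in WT (adjusted p = 0.00113) and 2.12 ± 0.21 in KI (adjusted p = 0.00246). Bmp4, another ligand of the branch, rose by 1.47 ± 0.19 and 1.02 ± 0.19 (adjusted p = 0.00428 and 0.0195). Fstl3, a secreted activin trap, fell by 1.08 ± 0.15 and 1.43 ± 0.15 (adjusted p = 0.00485 and 0.00256). Id3, a direct BMP target, rose by 0.72 ± 0.12 and 0.91 ± 0.12 (adjusted p = 0.00888 and 0.00525).

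Of 30 TGF-beta responsive genes, 5 rose and 4 fell in WT, and 6 rose and 4 fell in KI, where 10.0% and 8.96% of all genes did so in WT and 5.86% and 4.75% in KI. The median of the list was 0.17 in WT and 0.50 in KI, beside -0.042 and -0.023 over all genes. Col8a1, a short-chain collagen, read -0.62 to -0.15 at birth and 2.02 to 2.55 at 1 week, and rose by 2.52 ± 0.14 in WT and 2.64 ± 0.14 in KI (adjusted p = 0.000366 and 0.000358). Col1a2, a chain of type I collagen and a fibroblast marker here, rose by 1.09 ± 0.15 in WT (adjusted p = 0.00458) and by 0.74 in KI (adjusted p = 0.0228). Cthrc1, a secreted protein of matrix-producing fibroblasts, rose by 2.87 ± 0.31 in KI (adjusted p = 0.00284) and by 1.74 in WT (adjusted p = 0.0112). Ccn2, a matricellular protein and a much used target gene of the pathway, fell by 1.41 ± 0.28 in WT (adjusted p = 0.0162) and fell by 1.12 in KI (adjusted p = 0.0492). With the scanner-file labels its values were -1.03 in WT, not called (adjusted p = 0.0763), and -1.50 in KI, still called (adjusted p = 0.0232). Tgfbi, a TGF-beta-induced matrix protein, fell by 0.75 ± 0.17 in WT (adjusted p = 0.0269) and fell by 0.73 in KI (adjusted p = 0.0393), and neither was called with the scanner-file labels, at -0.90 (adjusted p = 0.0586) and -0.59 (adjusted p = 0.149). The largest rise of the list was that of Cilp, a matrix protein named after its value was seen, at 3.48 ± 0.65 in WT and 4.48 ± 0.65 in KI (adjusted p = 0.0132 and 0.00742). Its detection on the birth arrays and its values by the scanner files are not given here, so the size of this rise is uncertain. Cnn1, smooth muscle calponin, fell by 2.47 ± 0.44 in KI (adjusted p = 0.0157) and fell by 1.80 in WT (adjusted p = 0.0319). Acta2, smooth muscle actin and one of the mural markers, fell by 0.83 ± 0.18 in KI (adjusted p = 0.0334), though by 0.52 and without a call with the scanner-file labels (adjusted p = 0.220). Its WT difference was -0.11 (adjusted p = 0.686).

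**Figure D5:**
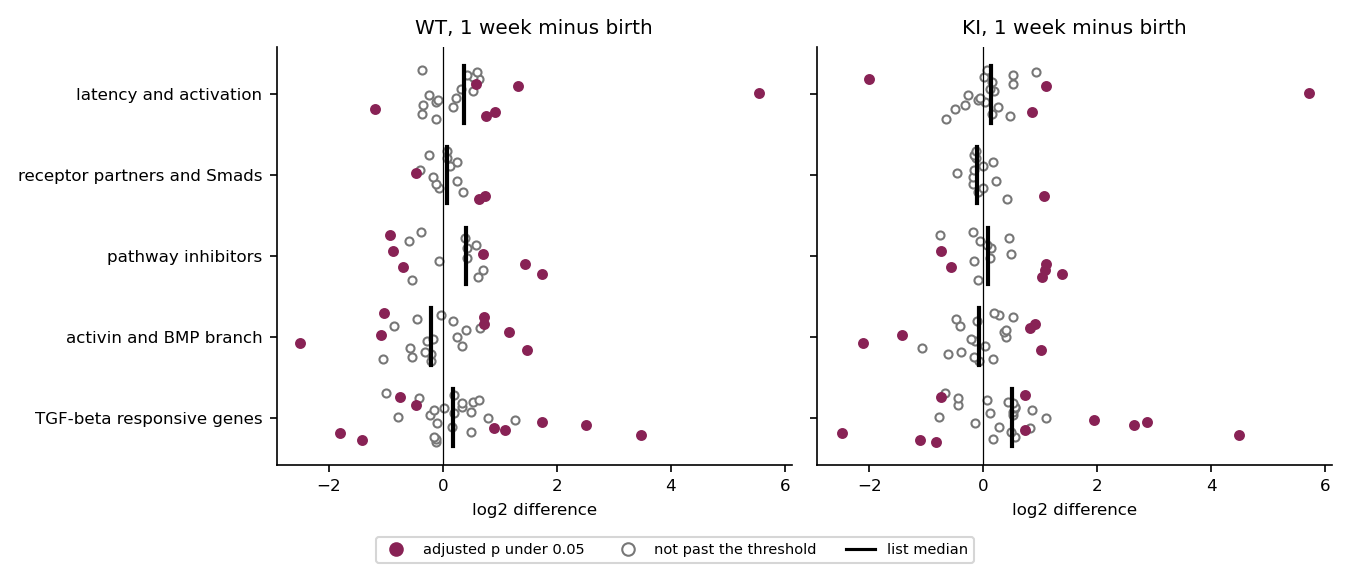
Difference between 1 week and birth, in log2 units, of the 105 tested genes of the 5 pathway lists in WT (left) and KI (right) by the value table; filled dots have an adjusted p under 0.05, open dots do not, and black bars are list medians. Each list has called genes on both sides of 0, except the receptor partners and Smads in KI. The dot near 5.5 is Itgb6, whose birth signal was not well above background. The called latency gene below 0 in KI is Mmp9, well above background on the KI birth arrays alone.

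Between genotypes the gene with the smallest p in each list still did not pass. At birth these were Mmp9 (higher in KI, at least 1.17-fold, adjusted p = 0.596), Cd109 (-0.27 ± 0.14, adjusted p = 0.9999), Fmod (-0.50 ± 0.27, adjusted p = 0.9999), Id3 (-0.37 ± 0.12, adjusted p = 0.787) and Cthrc1 (-1.01 ± 0.31, adjusted p = 0.748). At 1 week Fbn2 differed by 0.90 ± 0.20 (adjusted p = 0.428), Eng, the endothelial co-receptor endoglin, by -0.40 ± 0.20 (adjusted p = 0.689), Bambi, a decoy receptor, by 0.38 ± 0.17 (adjusted p = 0.689) and Col8a1 by 0.43 ± 0.14 (adjusted p = 0.658). Smad9, a BMP Smad, was not well above background on arrays A and D and was at least 1.89-fold higher on B and C (adjusted p = 0.294). For Mmp9 and Smad9 the adjusted p belong to the measured differences, which use signals not well above background, and not to the bounds. Mmp9 was tested only through the KI birth arrays, so its value at birth is no support for a genotype difference. For the interaction they were Mmp9 (adjusted p = 0.848), Smad9 (adjusted p = 0.822), Cd109 (0.33 ± 0.20), Bambi (0.45 ± 0.24) and Acta2 (-0.72 ± 0.26), the last 3 with an adjusted p of 0.888. Of these, Smad9 was not well above background in WT at 1 week, and Mmp9 in any group but KI at birth. With the scanner-file labels the sign of the 1-week difference turned for Eng, Bambi, Col8a1 and Smad9.

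The genes with the most similar profile over the 8 arrays were found by the root mean square difference of log2 levels, each gene centred on its own mean. For Ltbp2, whose levels had an SD of 0.85 over the arrays, they were Dner (0.16), Aldh1a3 (0.16) and Gxylt2 (0.19). For Tgfbr3, with an SD of 0.31, they were Heca (0.024), Hipk1 (0.046) and Polg2 (0.046). For Tgfb1 the nearest was Gpr137b-ps (0.058), for Tgfb2 Smc6 (0.033), for Tgfb3 Cldnd1 (0.067), for Tgfbr1 Copb1 (0.020), for Tgfbr2 Bahd1 (0.033), for Ltbp1 Tmx4 (0.068) and for Smad7 Kifc2 (0.034). No member was among the 3 nearest genes of another.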

How the data were processed

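Processed signals in the deposited scanner files are intensity values on a linear scale, corrected for background within the array by the authors' scanner software and not normalized between arrays. The deposited quality flags (other), coded 0 and 1, gave detection, saturation and outlier spots. Per the file headers the software was Feature Extraction 11.0.1.1; the submitters' processing notes give Agilent Feature Extraction 9.1. The deposited value table held the same intensity per probe. Each of its columns equalled 1 scanner file within a relative tolerance of 0.0001. Samples follow the value table, with the scanner-file labels beside.

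Spots of a probe were averaged without outlier spots and put on the log2 scale, less the 75th percentile over the non-control probes of the array. Each gene was read at its brightest probe, and was tested where 1 group or more had it well above background on its 2 arrays. A linear model with 1 mean per group used every array (limma 3.58.1 in R 4.3.3, lmFit and eBayes, 4 residual degrees of freedom). P-values were adjusted by Benjamini-Hochberg over all 15744 genes (15757 with the scanner-file labels) at 0.05. The fit was also run on simulated data, for KI against WT at birth only and without age differences. That run does not check the age calls. Symbols came from RefSeq accessions. An exact permutation test of 2 against 2 arrays cannot go below p = 0.333, so none is given. Alternatives were the sample record, background correction, scaling, the filter, the probe choice, the variance trend, the arrays fitted, a replicate block and leaving out each array. The number of arrays limits the precision.

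Named pathway genes are, in each list and comparison, up to 2 higher and 2 lower genes past the threshold with the smallest p, or the 1 with the smallest p where none passed. The members and lists were chosen with earlier results of these data known.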

Additional observations from a re-analysis of the deposited data

How the results depend on the processing

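Of the 45 member values, 20 alternatives fixed at the outset and 1 added after seeing the data (the scanner-file labels with array D left out) were tried, and 50 of the values so obtained turned sign; none of these was called, and the largest was 0.31 in size by the main setting. The rise of Ltbp2 in KI was called under every alternative (1.89 to 2.31, adjusted p = 0.000366 to 0.0344). The rise of Ltbp2 in WT (0.69 to 1.36) also missed the threshold with no filter on dim probes (adjusted p = 0.0710), with only the arrays compared (0.0817) and with the added alternative (0.0620). The fall of Tgfbr3 in KI missed it with median scaling (0.0720), no filter (0.0668), every probe fitted (0.0695) and only the arrays compared (0.0567), and that in WT with only the arrays compared (0.0592); Ltbp1 in WT passed with an intensity trend (0.0442).

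Members called by age numbered 1 in place of 2 in KI with median scaling, no filter, every probe fitted, only the arrays compared and the replicate block, and in WT 1 with the scanner-file labels, no filter and the added alternative and 0 with only the arrays compared. Without single arrays they ranged from 1 to 2 in KI and 0 to 3 in WT, and the genes called from 560 to 2022 and 1193 to 4180. Genes called by age otherwise moved by over 1.5 times with no filter (1084 in KI, 1868 in WT), every probe fitted (4828 probes in WT) and only the arrays compared (1454 in WT). Genotype calls at birth were 0 with the scanner-file labels (also without D), no filter, only the arrays compared and the replicate block, 2 with every probe and 3 with detection on all arrays (0 to 7 without single arrays). At 1 week they were 1 with the scanner-file labels, 4 with normexp and with detection on all arrays, 3 with no filter and with mean probes, 5 with every probe, 0 with only the arrays compared (2 to 22 without single arrays). Interaction calls were 0 with the scanner-file labels (also without D), quantile normalization, no filter, every probe and the replicate block, and 2 with median scaling and with detection on all arrays (0 to 4 without single arrays).

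Log2 differences that turned sign, none of them called, are given by setting. With median scaling they were 0.032 for Ltbp1 (interaction), -0.027 for Tgfb2 at birth and 0.022 for Tgfbr2 at 1 week. The labels of the scanner files gave interactions of 0.087 for Ltbp1, 0.041 for Smad7, 0.067 for Tgfb1, -0.031 for Tgfbr1 and -0.063 for Tgfbr3, and genotype differences at 1 week of 0.13 for Smad7, 0.022 for Tgfb1, -0.094 for Tgfbr1, 0.083 for Tgfbr2 and -0.10 for Tgfbr3. Leaving out array D as well gave interactions of 0.0013 for Ltbp1 and -0.0196 for Tgfbr3, and at 1 week 0.0504 for Smad7, 0.075 for Tgfbr2 and -0.0605 for Tgfbr3. Quantile normalization gave -0.0082 for Ltbp1 and -0.042 for Tgfb3 at 1 week and 0.024 for Tgfbr2 by age in WT, and normexp -0.0049 for Tgfbr2 by age in KI and 0.0043 for Tgfbr3 at birth. Averaging the probes of a gene gave 0.052 for Smad7 at 1 week and, for Tgfbr1, 0.0074 at birth, -0.58 at 1 week, 0.21 by age in WT and -0.59 for the interaction; its dimmer probe enters that mean. When single arrays were left out, interactions ran from -0.33 to 0.10 for Ltbp1, -0.38 to 0.039 for Tgfb1 and -0.021 to 0.18 for Tgfb2. At 1 week genotype differences ran from -0.19 to 0.25 for Ltbp1, -0.13 to 0.16 for Tgfb3, -0.013 to 0.22 for Tgfbr1 and -0.13 to 0.0009 for Tgfbr2. At birth they ran from -0.064 to 0.35 for Ltbp1, -0.029 to 0.21 for Smad7, -0.26 to 0.17 for Tgfb1, -0.0699 to 0.13 for Tgfb2 and -0.16 to 0.032 for Tgfbr1. The age difference of Tgfb3 in KI ran from -0.026 to 0.25. For the other settings the cause was not tested.

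The replicate numbers did not pair the arrays over all groups. The deviations correlated at 0.29 between WT and KI at birth, and at -0.14 to 0.16 between the other groups. The block left 2899 genes called by age in WT, 1576 in KI and 10 between genotypes at 1 week. It lost Tgfbr3 in KI (adjusted p = 0.0505) and no other member call. Median scaling moved the median of all genes by over 0.1, to -0.20 for age in WT, 0.11 between genotypes at 1 week and 0.17 for the interaction. The files used here hold no mean signal, so normexp was run on median signals.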
